A study of Homo sapiens with 12 samples.

Results

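OAS1, OAS2, OAS3 and OASL of the 2′-5′-oligoadenylate synthetase (OAS) family and the dynamin-like GTPases MX1 and MX2 were followed in RNA-seq libraries of 2 head and neck squamous carcinoma cell lines, CAL27 and HSC3. They were chosen by symbol and are 6 of the 39368 genes in the count tables. Both HPV-negative lines carried, per the study's methods, a tetracycline-inducible shRNA against the oncogene MUC1, delivered by a lentiviral vector. Transduced cells were selected with puromycin. CAL27 cells were grown in DMEM and HSC3 cells in MEM, each with fetal bovine serum. Cells received 0.1% DMSO as vehicle or 500 ng/mL doxycycline (DOX) for 7 days. Each of the 4 groups had 3 libraries. No library with an inducible scrambled shRNA was analysed here, so the effect of DOX itself and that of MUC1 silencing cannot be told apart.

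The OAS proteins are sensors of double-stranded RNA, a mark of viral infection. When bound to it, OAS1, OAS2 and OAS3 join ATP into chains of 2′-5′-linked oligoadenylate (2-5A), a second messenger of antiviral defence. OASL carries the family fold and ubiquitin-like repeats but makes no 2-5A, and is known for enhancing RIG-I signalling. MX1 acts against many RNA viruses, influenza among them, and MX2 against HIV. All 6 are textbook interferon-stimulated genes (ISGs), switched on by interferon through interferon-stimulated response elements (ISREs).

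The genes lie at 3 places in GRCh38, by the GENCODE v44 annotation. OAS1 (chr12:112905856-112933219), OAS3 (chr12:112938051-112976460) and OAS2 (chr12:112978395-113011723) stand in this order on the plus strand, with gaps of 4831 and 1934 bases between them. OASL (chr12:121017763-121039246, minus strand) is 8.006 Mb further along. MX2 (chr21:41361999-41409393) and MX1 (chr21:41420020-41470071) follow each other on the plus strand of chromosome 21, 10626 bases apart.

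The RefSeq promoter table (GRCh38.p14) held OAS1 and OAS3 with 1 start each and MX1 with 3 starts. The entries for OAS2, OASL and MX2 were not matched. The 250 bases before the start used by the annotation's canonical transcript are shown for the matched genes, all on the plus strand, because these are the stretches where the letters of an ISRE would be looked for. Capitals mark letters of the ISRE core, GAAANNGAA with a spacing of 2 bases or GAAANGAA with a spacing of 1, on either strand, where the form with a spacing of 1 was added after the sequences were seen. In other annotated transcripts, all 3 windows are exonic, while they hold no exon of the canonical transcript.
OAS1, chr12:112906712-112906961: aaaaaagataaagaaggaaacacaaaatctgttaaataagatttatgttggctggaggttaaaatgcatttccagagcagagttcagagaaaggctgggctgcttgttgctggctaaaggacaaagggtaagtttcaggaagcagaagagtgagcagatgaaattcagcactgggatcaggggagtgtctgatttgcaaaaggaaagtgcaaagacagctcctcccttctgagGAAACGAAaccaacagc
OAS3, chr12:112938224-112938473: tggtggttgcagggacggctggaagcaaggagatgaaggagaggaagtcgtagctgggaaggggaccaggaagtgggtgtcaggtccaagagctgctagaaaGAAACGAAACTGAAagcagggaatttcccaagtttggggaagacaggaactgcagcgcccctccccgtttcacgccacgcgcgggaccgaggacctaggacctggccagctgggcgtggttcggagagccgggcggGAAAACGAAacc
MX1, second start, chr21:41425989-41426238: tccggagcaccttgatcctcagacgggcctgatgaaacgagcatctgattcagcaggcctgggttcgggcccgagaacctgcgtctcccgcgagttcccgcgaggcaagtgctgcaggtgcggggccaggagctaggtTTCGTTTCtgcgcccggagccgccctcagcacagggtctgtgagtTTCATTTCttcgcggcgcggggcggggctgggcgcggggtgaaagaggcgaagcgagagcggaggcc

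In OAS1 the match was GAAACGAA from 17 to 10 bases before the start. OAS3 held GAAACGAA and GAAACTGAA, overlapping each other, from 148 to 135 bases before the start, and GAAAACGAA from 12 to 4 bases before it. MX1 held the reverse-strand forms TTCGTTTC, from 112 to 105 bases before the start, and TTCATTTC, from 67 to 60 bases before it. Of all 35116 windows of the table, 6.88% held GAAANNGAA and 6.42% held GAAANGAA in the same 250 bases. The gamma-activated sequence, searched as TTCNNNGAA, was present in 6.57% of all windows. Of the windows shown, that of OAS1 held it, as TTCAGAGAA from 168 to 160 bases before the start. Among the MX1 windows not shown, that of the third start held TTCCGTGAA, from 189 to 181 bases before it. That window also held the ISRE letters TTCTCTTTC, from 195 to 187 bases before the start. The window of the first MX1 start held TTCCTTTC, from 18 to 11 bases before it. These matches describe the letters only. No binding was measured.

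MUC1, the targeted gene, fell in every DOX library. CAL27 vehicle libraries held 8062, 5753 and 6589 MUC1 counts, and CAL27 DOX libraries 306, 285 and 419, for a log2 fold change of -4.21 (SE 0.067, edgeR adjusted p = 1.6e-19). HSC3 vehicle libraries held 191, 162 and 196 and HSC3 DOX libraries 46, 36 and 16, for a log2 fold change of -2.88 (SE 0.38, edgeR adjusted p = 2.0e-04). Library totals ran from 89730914 to 169065103 counts. The estimated number of counts per molecule was 2.66 to 3.55 in CAL27 libraries, 4.40 to 7.66 in HSC3 vehicle libraries and 9.14 to 17.5 in HSC3 DOX libraries. This estimate reads the excess of 0 counts as repeat reads of 1 molecule, which was not tested. Of counts from 1 to 19, 32.2% to 35.7% were odd in CAL27 libraries and 22.1% to 25.7% in HSC3 libraries. All 6 squamous markers, KRT5, KRT14, KRT17, KRT6A, TP63 and SFN, were above 1 CPM (counts scaled to library size) in each group, and none of 5 leukocyte markers was. Of 5 fibroblast markers, 2 were above 1 CPM in CAL27 vehicle libraries and 1 in each other group, led by COL1A1 at 9.26 CPM in CAL27 vehicle libraries. Of 3 endothelial markers, 1 was above 1 CPM in CAL27 cells, CDH5 at 16.1 CPM with vehicle and 10.95 with DOX, and 0 in HSC3 cells. The summed fibroblast markers were at 12.3 to 12.9 CPM with vehicle and 9.36 to 9.94 with DOX in CAL27 cells, and at 3.84 to 4.52 and 5.37 to 8.49 in HSC3 cells. The summed endothelial markers were at 16.5 to 16.7 and 9.76 to 13.3 CPM in CAL27 cells, and at 0.242 to 0.475 and 0.121 to 0.225 in HSC3 cells. The summed squamous markers also moved with DOX, from 6609 to 6805 CPM with vehicle to 2934 to 3098 with DOX in CAL27 cells and from 5533 to 6216 to 2432 to 3012 in HSC3 cells. The part of these markers in the results below was not tested. In bulk RNA, fewer cells expressing a gene and less RNA per cell cannot be told apart.

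In CAL27 cells all 6 antiviral genes fell with DOX, to between 10.7% and 33.0% of the vehicle level. The MX genes fell furthest and OAS3 and OASL least. MX2 and MX1 fell to 10.7% and 13.9%, OAS1 and OAS2 to 17.6% and 20.4%, and OASL and OAS3 to 32.3% and 33.0%. All 6 were called lower, at an edgeR adjusted p under 0.05 and a change past 2-fold, where 5.11% of the 19239 genes tested were called lower and 1.31% higher. Their median log2 fold change was -2.40, against -0.0052 over all genes tested. Every DOX library was below every vehicle library for each of the 6, as it was for 26.3% of all genes.

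HSC3 cells also lost all 6 transcripts with DOX. OASL fell nearly to the limit of detection. For the others, MX2 was left at 19.4% of its vehicle level, MX1 at 26.5%, OAS1 at 35.3%, OAS2 at 38.7% and OAS3 at 41.9%. Of 18021 genes tested in this line, 4.40% were called lower and 1.58% higher, and the 6 had a median log2 fold change of -1.71 against -0.0097 over all genes. For all 6, every DOX library was below every vehicle library, as for 22.8% of all genes. Being called lower in both lines applied to 1.14% of the 17164 genes tested in both, and to the 6. In both lines the fitted falls of MX2 and MX1 were deeper than those of OAS1, OAS2 and OAS3 under every alternative run. The order of OAS1 and OAS2 in HSC3 cells turned without DOX library 3 (log2 fold changes of -1.33 for OAS1 and -1.38 for OAS2).

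**Figure D1:**
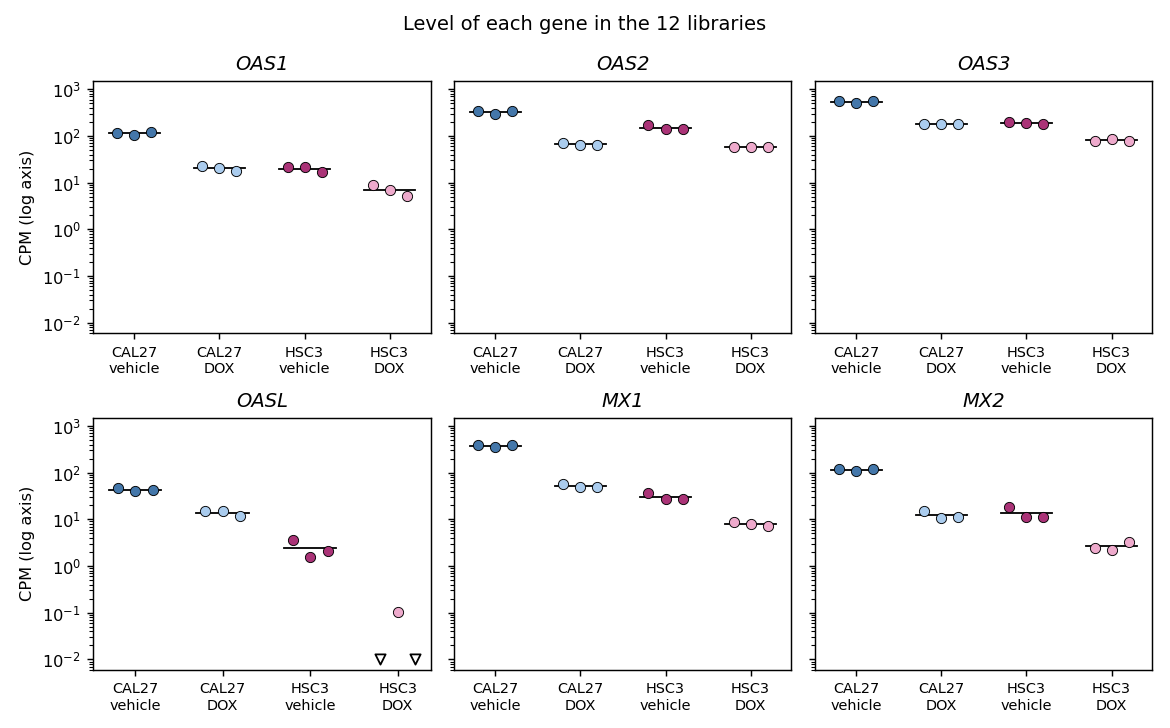
Level of each gene in CPM (counts scaled to library size with TMM factors over all 12 libraries, log axis) in each library, with points for libraries and black lines for means of 3; open triangles mark libraries with 0 counts. Within each line the DOX libraries lie below the vehicle libraries for all 6 genes, and OASL in HSC3 DOX libraries has 1 library at 0.104 CPM and the others at 0.

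OAS1, the smallest of the 2-5A synthetases, had 116, 107 and 122 CPM in the CAL27 vehicle libraries and 22.8, 20.2 and 17.8 CPM with DOX. In HSC3 cells the libraries held 21.7, 21.1 and 16.6 CPM under vehicle and 9.03, 6.80 and 5.16 CPM under DOX. So the lowest vehicle library stood above the highest DOX library in each line, and HSC3 cells with vehicle had about the OAS1 level of CAL27 cells with DOX. The log2 fold change was -2.51 (SE 0.085, edgeR adjusted p = 8.4e-09) in CAL27 and -1.50 (SE 0.19, edgeR adjusted p = 1.5e-04) in HSC3 cells. OAS1 spread most in HSC3 DOX libraries, with a coefficient of variation (CV) of 27.1%, where its 624 to 1340 counts came from an estimated 54.2 to 100.3 molecules, and counting those molecules alone gives a CV of 11.8%.

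OAS2, which works as a dimer, read 334, 294 and 335 CPM under vehicle and 71.4, 63.3 and 62.5 CPM under DOX in CAL27 cells. In HSC3 cells it read 170, 139 and 144 CPM under vehicle and 58.3, 58.6 and 59.2 CPM under DOX. The DOX libraries of the lines thus came close together for this gene, at 65.7 ± 4.90 CPM (SD, n = 3) in CAL27 and 58.7 ± 0.473 CPM (SD, n = 3) in HSC3 cells, from vehicle means of 321 ± 23.7 and 151 ± 16.5 CPM. Its log2 fold change was -2.29 (SE 0.056, edgeR adjusted p = 2.3e-14) in CAL27 and -1.37 (SE 0.082, edgeR adjusted p = 9.2e-07) in HSC3 cells.

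OAS3, the largest synthetase of the family and the one with the highest affinity for long double-stranded RNA, read 550, 504 and 557 CPM under vehicle and 180, 177 and 176 CPM under DOX in CAL27 cells. In HSC3 cells it read 203, 194 and 179 CPM under vehicle and 79.1, 84.1 and 78.6 CPM under DOX. The log2 fold changes were -1.60 (SE 0.041, edgeR adjusted p = 2.6e-16) in CAL27 and -1.25 (SE 0.068, edgeR adjusted p = 4.9e-07) in HSC3 cells, where its fitted fall was the shallowest of the 6, although its ratio to OAS2 overlapped between the treatments. In CAL27 cells the order of OAS3 and OASL turned without DOX library 6 (-1.59 for OAS3 and -1.50 for OASL) and without vehicle library 1 (-1.596 and -1.591).

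OASL behaved differently in the lines. In CAL27 cells the level was 46.0, 41.3 and 41.7 CPM under vehicle and 15.4, 14.98 and 11.5 CPM under DOX, for a log2 fold change of -1.63 (SE 0.098, edgeR adjusted p = 3.9e-07). HSC3 cells started low, at 414, 128 and 248 counts with vehicle (an estimated 59.8, 29.1 and 32.4 molecules), and had 0, 14 and 0 counts with DOX (an estimated 1.53 molecules in the library with 14 counts). Against a floor of 3 estimated molecules per library, chosen after seeing the data and equal to 52.4 and 34.6 counts, DOX libraries 1 and 3 were at least 6.91-fold and at least 8.45-fold lower than the vehicle mean. The fitted log2 fold change of -6.08 (SE 0.89, edgeR adjusted p = 4.2e-04) has its size set by DOX library 2: without that library it was -11.15, a value that depends on the prior count and is no bound.

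MX1 read 385, 350 and 387 CPM under vehicle and 58.5, 48.3 and 49.2 CPM under DOX in CAL27 cells. In HSC3 cells it read 36.5, 27.3 and 27.0 CPM under vehicle and 8.75, 8.10 and 7.25 CPM under DOX. MX1 fell in both lines without overlap, and even the highest HSC3 vehicle library was below the lowest CAL27 DOX library. The log2 fold change was -2.85 (SE 0.067, edgeR adjusted p = 5.3e-12) in CAL27 and -1.92 (SE 0.14, edgeR adjusted p = 2.9e-06) in HSC3 cells. TMPRSS2, a protease gene on the opposite strand, overlaps 3.12% of the annotated MX1 exon bases, and it had 679 to 796 counts with vehicle and 280 to 368 with DOX in CAL27 cells and at most 4 counts in any HSC3 library, against 877 or more for MX1 in each library.

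MX2 had 118, 109 and 117 CPM under vehicle and 15.2, 10.7 and 11.03 CPM under DOX in CAL27 cells. In HSC3 cells the values were 18.0, 11.1 and 11.4 CPM under vehicle and 2.47, 2.22 and 3.21 CPM under DOX. HSC3 vehicle library 1 was high for MX2, and also the highest of its group for the other 5 genes. The log2 fold change was -3.22 (SE 0.14, edgeR adjusted p = 2.0e-05) in CAL27 and -2.37 (SE 0.22, edgeR adjusted p = 1.6e-05) in HSC3 cells. An estimated 21.0 to 33.7 molecules lay behind the MX2 counts in HSC3 DOX libraries, and counting them gives a CV of 18.97%, next to an observed CV of 19.6%.

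The interaction term of 1 fit over all 12 libraries asked whether the response differed between lines, as the HSC3 minus the CAL27 log2 fold change. It was positive, a shallower fall in HSC3 cells, for 5 of the 6 genes. The differences were 1.01 (SE 0.22, edgeR adjusted p = 0.0037) for OAS1, 0.92 (SE 0.11, edgeR adjusted p = 2.4e-05) for OAS2, 0.35 (SE 0.079, edgeR adjusted p = 0.0052) for OAS3 and 0.94 (SE 0.15, edgeR adjusted p = 4.6e-04) for MX1. For MX2 the difference of 0.85 (SE 0.25, edgeR adjusted p = 0.027) passed by little and lost the call when any 1 of 8 libraries was left out. OASL went the other way, at -4.47 (SE 0.66, edgeR adjusted p = 1.7e-04), and rests on few HSC3 counts. Over all 20694 genes, 8.25% had a difference above 0 and 12.3% a difference below 0 at this threshold.

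**Figure D2:**
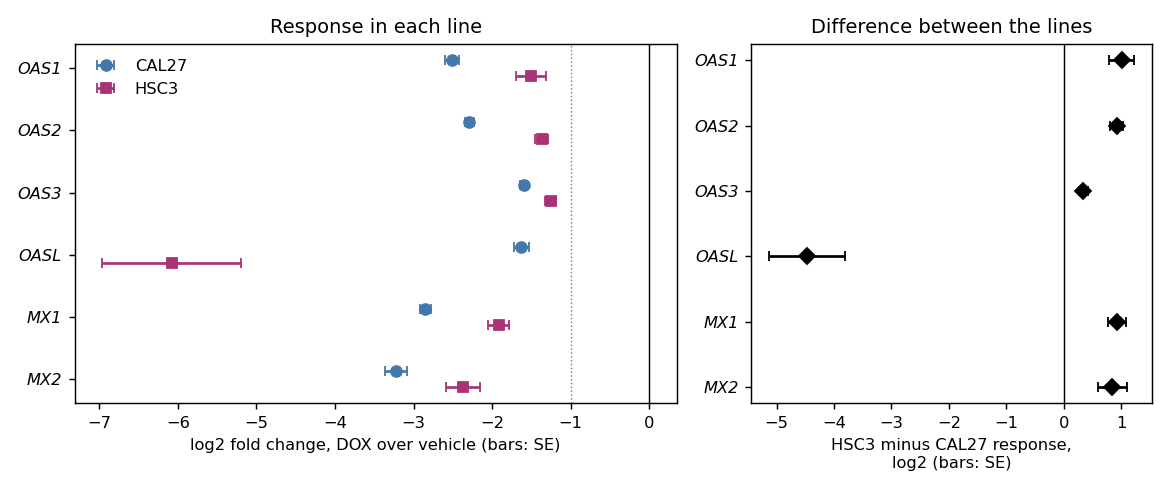
Left, log2 fold change of DOX over vehicle in CAL27 (circles) and HSC3 (squares) cells; right, the difference between the lines, HSC3 minus CAL27; bars are standard errors. All values on the left are below the dotted line at -1, and on the right OASL, at -4.47, is the only gene below 0.

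With vehicle, HSC3 cells had less of all 6 transcripts than CAL27 cells, between 5.67% of the CAL27 level for OASL and 47.1% for OAS2. The synthetases OAS1 and OAS3 stood at 17.2% and 35.7%, MX1 at 8.09% and MX2 at 11.8%. All 6 were called lower, where 18.7% of the 20694 genes tested were called lower and 13.2% higher, with a median log2 fold change of -2.81 over the 6 and -0.12 over all genes. The log2 difference ranged from -1.09 (SE 0.077, edgeR adjusted p = 5.2e-09) for OAS2 to -4.14 (SE 0.29, edgeR adjusted p = 3.9e-09) for OASL. With library totals in place of TMM factors the median of all genes was -0.39, and the 6 stayed lower. The lines differ in medium and may differ in library batch, which cannot be told apart from line.

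Together the 6 genes took 0.167 ± 0.00943% (SD, n = 3) of all counts in CAL27 vehicle libraries and 0.0374 ± 0.00159% with DOX. In HSC3 cells the share was 0.0375 ± 0.00369% with vehicle and 0.0141 ± 0.000504% with DOX. CAL27 cells with DOX and HSC3 cells with vehicle thus had about the same share, made up differently. OAS1, OAS3 and MX2 levels overlapped between these groups. By contrast, OAS2 was at 62.5 to 71.4 CPM in CAL27 DOX and 139 to 170 CPM in HSC3 vehicle libraries. MX1 was at 48.3 to 58.5 against 27.0 to 36.5 CPM and OASL at 11.5 to 15.4 against 1.56 to 3.59 CPM, both higher in the CAL27 DOX libraries.

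Counts of different genes were compared per kilobase of the annotation's canonical transcript, from 1631 bases for OAS1 to 6599 for OAS3. On this scale MX1 led in CAL27 vehicle libraries at 135 ± 7.50 CPM per kb (SD, n = 3), followed by OAS3 at 81.4 ± 4.33, OAS1 at 70.5 ± 4.74, OAS2 at 69.5 ± 5.13, MX2 at 33.6 ± 1.46 and OASL at 13.2 ± 0.796. OAS1 and OAS2 overlapped, and the other neighbours in the order did not. With DOX, OAS3 moved ahead of MX1, at 26.9 ± 0.306 against 18.7 ± 2.03 CPM per kb, and OASL, at 4.27 ± 0.647, overlapped MX2, at 3.62 ± 0.739. HSC3 vehicle libraries had OAS2 and OAS3 on top, overlapping at 32.7 ± 3.58 and 29.1 ± 1.80 CPM per kb, then OAS1 at 12.1 ± 1.73 and MX1 at 10.9 ± 1.94, also overlapping, then MX2 at 3.96 ± 1.14 and OASL at 0.736 ± 0.323. The HSC3 order was the same with DOX. The order depends on the length used: over the union of all annotated exons, which includes retained introns, OAS3 led in CAL27 vehicle libraries at 29.8 CPM per kb, ahead of OAS2 at 28.6 and MX1 at 20.8.

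**Figure D3:**
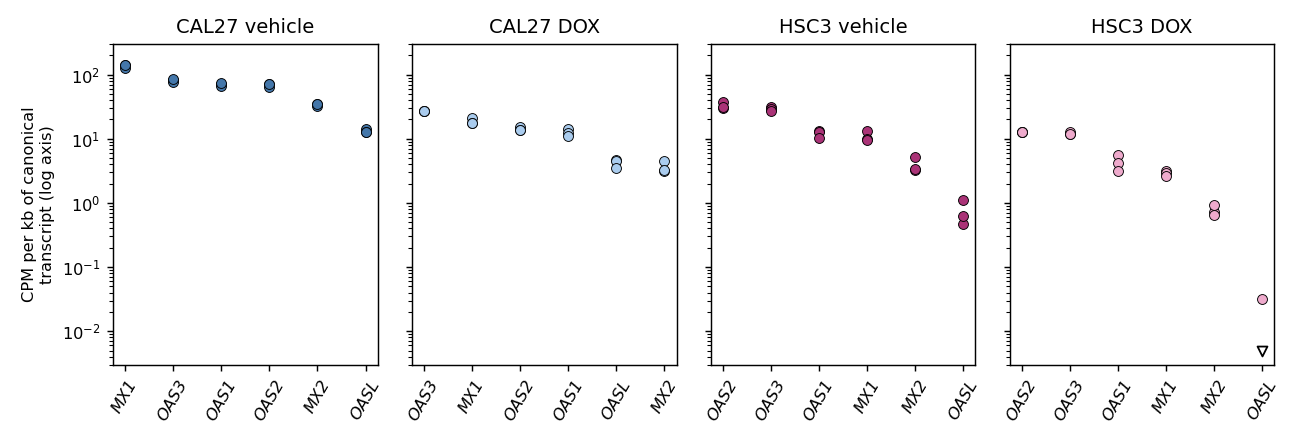
Level per kilobase of canonical transcript (CPM per kb, log axis, points for libraries) with the genes of each group ordered by their mean; the open triangle marks OASL libraries with 0 counts. MX1 leads in CAL27 vehicle libraries at a mean of 135 CPM per kb, OAS3 in CAL27 DOX libraries and OAS2 in both HSC3 groups.

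Ratios of counts taken within a library do not depend on its total count. They were not divided by length, so they serve to compare groups and not the levels of the genes. The OAS family made up 67.5 ± 0.180% (SD, n = 3) of the counts of the 6 genes in CAL27 vehicle libraries and 81.2 ± 1.37% with DOX, and 89.4 ± 1.23% and 93.2 ± 0.329% in HSC3 libraries. MX1 counts per OAS3 count fell from 0.696 ± 0.00313 to 0.293 ± 0.0283 in CAL27 cells and from 0.157 ± 0.0203 to 0.0997 ± 0.00958 in HSC3 cells, with no overlap between DOX and vehicle libraries (exact permutation p = 0.1 for each line and each of these measures, two-sided, the smallest that 3 against 3 can give). So MX1 lost more than OAS3 in both lines. Within the family, the OAS3 to OAS2 ratio was 1.68 ± 0.0376 with vehicle and 2.71 ± 0.165 with DOX in CAL27 cells (exact permutation p = 0.1), and 1.28 ± 0.101 and 1.37 ± 0.0558 in HSC3 cells (exact permutation p = 0.3). The MX1 to MX2 ratio was 3.27 ± 0.0490 with vehicle and 4.27 ± 0.371 with DOX in CAL27 cells (exact permutation p = 0.1), and 2.28 ± 0.222 and 3.15 ± 0.775 in HSC3 cells, where the ranges overlapped (exact permutation p = 0.3). None of these ratio tests could pass 0.05 at this group size.

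**Figure D4:**
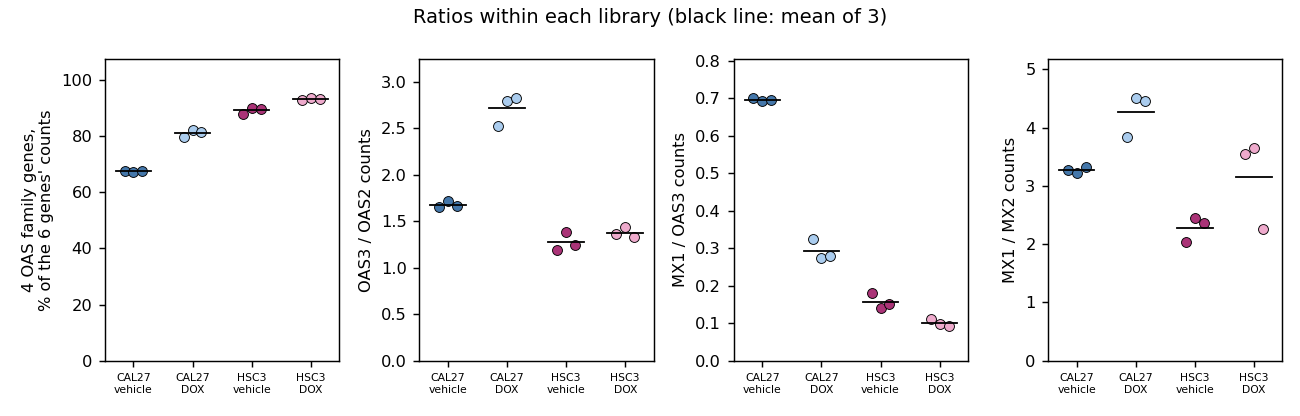
Ratios of counts within each library by group, with points for libraries and black lines for means of 3: the OAS family's share of the counts of the 6 genes in percent, and the OAS3 to OAS2, MX1 to OAS3 and MX1 to MX2 ratios. The MX1 to OAS3 ratio is lower with DOX in both lines, and the OAS3 to OAS2 ratio separates the treatments only in CAL27 cells.

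With group means removed, the Pearson correlation of log2 CPM over the 12 libraries was 0.85 between OAS2 and MX1, 0.82 between OAS2 and MX2, 0.70 between OAS1 and MX1 and 0.69 between OAS2 and OAS3. It was 0.63 between MX1 and MX2 and 0.35 between OAS1 and OAS2, which share a cluster. OASL had 0.53 with OAS3 and -0.061 with MX2. The points share libraries and normalization factors, and these values are descriptions.

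The 5 other genes whose log2 CPM over the 12 libraries was most like the mean of the 6 were the interferon-induced IFI44 (Pearson r = 0.995), the netrin receptor UNC5B (0.995), the atypical chemokine receptor ACKR3 (0.993), FAM117B (0.992) and PRRG4 (0.990), of 9229 genes compared. The lowest OASL values, in the 2 HSC3 DOX libraries with 0 counts, are set by the prior count of 2 and not measured. OASL, whose log2 CPM spanned 11.42 over the libraries with these values, weighs heavily in the mean of the 6. Without it, in a ranking chosen after seeing the data, the leading genes were the interferon-induced ubiquitin ligase family member HERC6 (0.997), the potassium channel KCNJ15 (0.995), the scramblase PLSCR1 (0.992), the dNTP hydrolase SAMHD1 (0.990) and the growth factor MDK (0.989). Most like OASL alone were ARHGEF4 (0.992), CLU (0.991), HELB (0.989), KAT6B (0.988) and PDPK1 (0.988), in a ranking that also uses the values set by the prior count. All genes ranked here were picked for following the members over the same 12 libraries, so falls with DOX are largely fixed by the choice. Of the 10 genes of the first 2 rankings, 5 were called lower in both lines, beside 1.14% of all genes tested in both. These were IFI44 (log2 fold changes -1.52 in CAL27 and -1.90 in HSC3 cells), UNC5B, ACKR3, PRRG4 and HERC6 (-1.71 and -1.05). Another 3 were called in CAL27 cells and stayed short of 2-fold in HSC3 cells, PLSCR1 (-1.19 and -0.59), SAMHD1 (-1.42 and -0.69) and MDK (-1.07 and -0.61). The remaining 2, FAM117B and KCNJ15, were called in neither line. Of the 5 genes most like OASL, 2 were called lower in HSC3 cells, ARHGEF4 and CLU, and none in CAL27 cells. Over all genes tested, 4.40% were called lower in HSC3 and 5.11% in CAL27 cells.

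Genes with other roles around the OAS products were also followed. ABCE1, an ATPase of ribosome recycling, was higher with DOX at a log2 fold change of 0.45 in CAL27 cells (edgeR adjusted p = 1.5e-08) and had 0.20 in HSC3 cells (edgeR adjusted p = 0.097). PDE12, a phosphodiesterase that degrades 2-5A, was higher at 0.49 in CAL27 (edgeR adjusted p = 1.9e-08) and 0.43 in HSC3 cells (edgeR adjusted p = 0.0010). Neither gene reached a 2-fold change, so neither was called in either line. By adjusted p under 0.05 alone, 22.6% of all genes tested were higher in CAL27 and 13.0% in HSC3 cells.

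Among the 7 genes of the interferon receptor, its kinases and its transcription factors, 2 were called lower in CAL27 cells and 0 in HSC3 cells. Of all genes tested, 5.11% and 4.40% were called lower in these lines. By adjusted p under 0.05 alone, 4 of the 7 were lower in CAL27 and 2 in HSC3 cells, beside 21.8% and 15.4% of all genes tested. For STAT2 the log2 fold change was -1.14 (edgeR adjusted p = 8.9e-15) in CAL27 and -0.29 (edgeR adjusted p = 0.018) in HSC3 cells. IRF9 was called in CAL27 cells at -3.22 (edgeR adjusted p = 0.0011), on 22 to 30 counts with vehicle and 0 to 6 with DOX. The list medians were -0.15 in CAL27 and -0.29 in HSC3 cells, beside the all-gene medians given above.

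Of 7 other proteins that bind double-stranded RNA, 4 were called lower in CAL27 cells and 0 of the 6 tested in HSC3 cells. Over all genes tested, 5.11% were called lower in CAL27 and 4.40% in HSC3 cells. The 4 were IFIH1 (MDA5) at -1.16, DDX58 (RIG-I) at -1.11, DHX58 (LGP2) at -1.79 and ZBP1 at -3.74 on the log2 scale, the last on 109 to 143 counts with vehicle and 3 to 14 with DOX. By adjusted p under 0.05 alone, all 7 fell in CAL27 cells and 2, EIF2AK2 (PKR) at -0.26 and the zinc finger antiviral protein ZC3HAV1 at -0.21, did in HSC3 cells. By that rule 21.8% of all genes tested were lower in CAL27 and 15.4% in HSC3 cells. IFIH1 had 26.5 ± 1.59 CPM (SD, n = 3) with vehicle and 28.0 ± 1.44 with DOX in HSC3 cells (log2 fold change 0.08, edgeR adjusted p = 0.58), and the difference between the lines was 1.23 (edgeR adjusted p = 1.2e-06).

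Relatives by protein fold were examined too. CGAS, the DNA sensor cGAS, shares the OAS fold and changed by a log2 value of 0.08 (edgeR adjusted p = 0.15) in CAL27 and -0.65 (edgeR adjusted p = 1.3e-04) in HSC3 cells, without a call in either line. In the dynamin superfamily, which the MX proteins belong to, 0 of 7 other genes passed the call in CAL27 cells. In HSC3 cells 1 did, DNM1 at -1.41 (edgeR adjusted p = 0.0022). Of all genes tested, 5.11% were called lower in CAL27 and 4.40% in HSC3 cells.

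The genes next to the 6 on the chromosome were examined as the 3 nearest protein-coding genes on each side of the OAS cluster, of OASL and of the MX pair, 18 in all. In CAL27 cells 2 of 17 tested were called lower, where 5.11% of all genes tested were. They were DTX1 at -1.05 (edgeR adjusted p = 0.023) beside OAS2 and FAM3B at -1.38 (edgeR adjusted p = 0.045) beside MX2. DTX1 had 31 to 63 counts with vehicle and 14 to 26 with DOX. FAM3B had 14 to 20 counts with vehicle and 6 in each DOX library. In HSC3 cells 1 of 14 tested was called lower, where 4.40% of all genes tested were. It was P2RX7, an ATP-gated channel next to OASL, at -3.41 (edgeR adjusted p = 0.0018). P2RX7 had 55 to 139 counts with vehicle and 4 to 18 with DOX in this line. The calls of these neighbours thus rest on few counts. None was called higher in either line. The neighbours' median log2 fold change was -0.052 in CAL27 and 0.048 in HSC3 cells, against -0.0052 and -0.0097 over all genes tested.

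**Figure D5:**
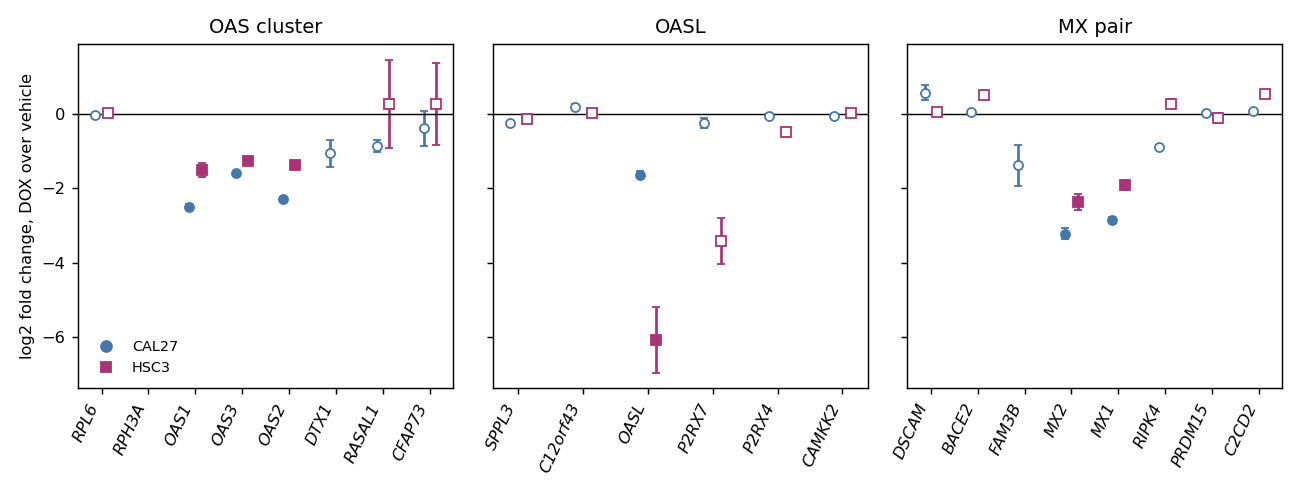
Log2 fold change of DOX over vehicle for the 6 genes (filled) and 16 of their 18 neighbours (open), in chromosome order without scale, in CAL27 (circles) and HSC3 (squares) cells; bars are standard errors, and genes that were not tested in a line have no point there. The 6 genes lie below -1 in both lines. P2RX7 next to OASL lies at -3.41 in HSC3 cells, on 4 to 18 counts in the DOX libraries.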

How the data were processed

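RNA was polyA-selected (TruSeq Stranded mRNA) from cells cultured in triplicate. Per the labels, the authors' processing used STAR 2.7.9a, Subread 2.0.1 (featureCounts) and GRCh38, and they deposited raw counts per gene, 1 table per line, with no normalization. The strand setting of the counting is not given in the sources used here. The labels do not tell separate cultures from technical repeats further, so p-values measure the spread between these libraries. No pair of replicates agreed within counting noise. The CAL27 DOX columns are numbered 4 to 6 and were assigned to that group, without pairing.

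Counts were tested with edgeR 4.0.16 in R 4.3.3 (filterByExpr, minimum 10; TMM; robust quasi-likelihood), each line alone for DOX and all 12 libraries together for the interaction and the baseline. A call needed a p, adjusted by Benjamini-Hochberg across the genes tested, under 0.05 and a change above 2-fold (the interaction: the adjusted p alone). DESeq2 1.42.0 was an alternative. Scripts were tested on simulated data. The share of genes with 0 counts among those with 8 to 16 expected gave the estimated counts per molecule. Named genes were the 6 members, MUC1, TMPRSS2, cell type markers, and list members that were called or that a sentence is about. The 5 leading genes of each likeness ranking (mean log2 CPM of at least 3) were also named. The members and lists were chosen with earlier results of these data known. Intervals and floors cover counting error only. Some genes of the lists are not reported here.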

Additional observations from a re-analysis of the deposited data

Results flagged for a closer look

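The DOX response of all 6 genes differed between CAL27 and HSC3 cells by the interaction test, at an edgeR adjusted p under 0.05. At this threshold, 8.25% of the 20694 genes tested had a difference above 0 and 12.3% a difference below 0. MX2 lost the call when any 1 of 8 libraries was left out. The HSC3 minus CAL27 difference in log2 fold change was 1.01 for OAS1, 0.92 for OAS2, 0.35 for OAS3, 0.94 for MX1 and 0.85 for MX2, a shallower fall in HSC3 cells. OASL had -4.47, a deeper fall in HSC3 cells, where 2 of the 3 DOX libraries held 0 counts.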

How the results depend on the processing

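All 6 genes were called lower with DOX in CAL27 cells, with DOX in HSC3 cells and at baseline in HSC3 cells under every alternative run (DESeq2 size factors, library totals, no low count filter, DESeq2, other fold thresholds, estimated molecules in place of counts, 1 fit over 12 libraries for the DOX comparisons, and each library left out), and no direction changed. The interaction kept 5 to 6 of the 6 when 1 library was left out, and 2, OAS1 and OASL, when a difference above 1 in size was also required. MX2 was the gene lost when a library was left out, with an edgeR adjusted p of up to 0.078, and also with no low count filter (adjusted p = 0.093) and with estimated molecules in place of counts (adjusted p = 0.065). The OASL fold change in HSC3 cells ran from -11.15, without DOX library 2, to -5.14, with estimated molecules in place of counts. The HSC3 libraries share only their replicate numbers (correlations of -0.025, 0.046 and -0.006 between same-numbered libraries, and 2 of 6 libraries correlating best with their own number). With a replicate block, 6 of the 6 were called in HSC3 cells and 1005 genes in all, against 1077 without it. No paired analysis was possible in CAL27 cells because the DOX columns carry no matching number. The comparison of protein sequences was not run. Depth limits OASL in HSC3 cells, where 0 counts in a library allow up to 3 estimated molecules. It also limits IRF9, ZBP1 and the called neighbours DTX1, FAM3B and P2RX7.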
